A study of Mus musculus with 7 samples.

Results

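miR-219 and the arms of miR-338 are the microRNAs best known from oligodendrocytes, the myelin-forming cells of the brain. They were followed here in mouse astrocytoma and in normal neocortex through the probes named mmu-miR-219, mmu-miR-338-3p and mmu-miR-338-5p, which are 3 of the 566 mouse miRNA probes on a NanoString nCounter panel. The members were taken by probe name, as a group proposed with earlier results of these data known. Wild-type CD1 mice at postnatal day 60 gave the 3 neocortex samples, dissected from cortical layers II to IV. The 4 tumors came from CD1 mice transgenic for hGFAP-HaV12-Ras, an activated Ha-Ras oncogene driven by the human promoter of GFAP, the astrocyte filament gene. They were taken at postnatal days 65, 104, 125 and 134 (tumor 1 to 4). Of the 7 samples 5 were male, and the female ones were neocortex 2 and tumor 2. The labels give no brain site for the tumors, so a difference of region and a difference of tissue state cannot be told apart. They do not say whether the neocortex samples came from separate animals, so p-values measure the spread between these samples.

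A miRNA is cut from a hairpin precursor and guides repression of messenger RNAs that pair with its seed, bases 2 to 8. Oligodendrocyte progenitors raise miR-219 and miR-338 as they leave the cell cycle and begin to make myelin. In mouse, miR-219 represses Pdgfra, Sox6 and other genes that hold progenitors in the dividing state, and miR-338 acts with it on Sox6 and Hes5. Upper cortical layers are gray matter with fewer myelinating cells than deep layers or white matter.

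The mature sequences are shown because the probes read them and because the members act through unlike seeds. They are RefSeq sequences (GRCm38.p6), 5′ to 3′, with the seed in capitals. The probe name miR-219 carries no arm and was matched to miR-219a-5p, the main arm that earlier carried the name. This match came from general knowledge of the naming and not from a probe sequence.
miR-219a-5p: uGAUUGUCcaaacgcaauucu
miR-338-3p: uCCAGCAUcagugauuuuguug
miR-338-5p: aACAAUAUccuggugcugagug
The seeds differ from each other, and none of the 1679 mature mouse miRNA names in that table has the seed of a member under another name.

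The precursors show which loci a probe can and cannot tell apart. In the hairpins below the measured mature miRNAs are in capitals.
Mir338: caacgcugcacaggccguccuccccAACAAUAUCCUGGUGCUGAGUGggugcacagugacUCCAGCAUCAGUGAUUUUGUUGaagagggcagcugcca
Mir219a-1: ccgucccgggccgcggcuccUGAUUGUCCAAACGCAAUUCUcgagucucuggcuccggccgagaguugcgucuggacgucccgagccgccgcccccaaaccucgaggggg
Mir219a-2: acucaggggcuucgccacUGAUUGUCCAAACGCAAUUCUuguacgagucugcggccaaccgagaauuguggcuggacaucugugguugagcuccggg
Mir338 lies on the minus strand at chr11:120014765-120014862 (GRCm38.p6), inside the span of the protein-coding gene Aatk, and gives miR-338-5p first and miR-338-3p second. Mir219a-1 lies on the minus strand at chr17:34024983-34025092. Mir219a-2 lies on the minus strand at chr2:29845631-29845727, within the annotated span of Cercam. Mir219a-1 and Mir219a-2 give the same mature miR-219a-5p, so a probe that reads it cannot tell these loci apart. The annotation places another miRNA gene over each hairpin: Mir3065 at Mir338, Mir219c at Mir219a-1 and Mir219b at Mir219a-2.

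The deposited values are log2 levels in which each sample had been scaled by the authors, and probes under a cutoff of the sample are listed at 0. At the low end the values were whole multiples of 1 number per sample, which gave back the counts. The samples held 23562 to 60797 miRNA counts in neocortex and 117639 to 208139 in tumor, and the cutoff lay at 4.65 to 5.21 on the log2 scale in neocortex and at 3.09 to 3.78 in tumor. All 3 members were above the cutoff in all 7 samples, and all 3 passed the filter on low values that left 283 miRNAs to test.

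miR-219 and miR-338-3p were among the brightest miRNA probes of the neocortex and lay over 4-fold lower in tumor on the authors' scale. miR-338-5p, a minor arm close to the background, was lower by a smaller factor. The level of miR-219 was 11.65, 11.23 and 11.32 in neocortex 1 to 3 and 9.10, 8.47, 9.60 and 9.68 in tumor 1 to 4. Every tumor lay below every neocortex sample, with a gap of 1.55 between the lowest neocortex and the highest tumor. The log2 mean fell from 11.40 ± 0.22 (SD, n = 3) in neocortex to 9.21 ± 0.56 (SD, n = 4) in tumor, a fall of 4.56-fold (log2 change -2.19, SE 0.34, Benjamini-Hochberg adjusted p = 0.00912 in limma).

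miR-338-3p, the main arm of its hairpin, had levels of 12.11, 11.76 and 11.94 in neocortex 1 to 3 and of 9.54, 9.28, 10.07 and 10.53 in tumor 1 to 4. The groups were again apart, by 1.23, and tumor 2 was again the lowest sample. Its mean was 11.94 ± 0.17 in neocortex (SD, n = 3) against 9.86 ± 0.56 for the tumors (SD, n = 4), a fall of 4.23-fold (log2 change -2.08, SE 0.33, limma Benjamini-Hochberg adjusted p = 0.00976).

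miR-338-5p had levels of 6.09, 6.84 and 6.38 in neocortex 1 to 3 and of 5.26, 4.79, 5.51 and 4.61 in tumor 1 to 4. The groups did not overlap, but the gap was only 0.58 and the lowest tumor was tumor 4. The tumor mean of 5.04 ± 0.42 (SD, n = 4) lay below the neocortex mean of 6.44 ± 0.38 (SD, n = 3), a fall of 2.63-fold (log2 change -1.39, SE 0.30, limma Benjamini-Hochberg adjusted p = 0.0281).

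All 3 members passed the test in the lower direction, as did 27 of the 283 tested miRNAs (9.54%). Every tumor lay below every neocortex sample for all 3, and for 19.1% of the tested miRNAs. By size of the fall miR-219 and miR-338-3p stood in places 3 and 4 of the 283 and miR-338-5p in place 15. The median change over all tested miRNAs was 0.03. Some of these were listed at 0 in neocortex, where the cutoff was higher. Over the 197 miRNAs above the cutoff in all 7 samples, as the members are, the median was -0.29. A fit on these 197 alone called 41 lower, the 3 members among them. These members had been picked with such results known, so their places are a description. In bulk tissue, fewer oligodendrocytes and less miRNA per oligodendrocyte cannot be told apart.

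**Figure D1:**
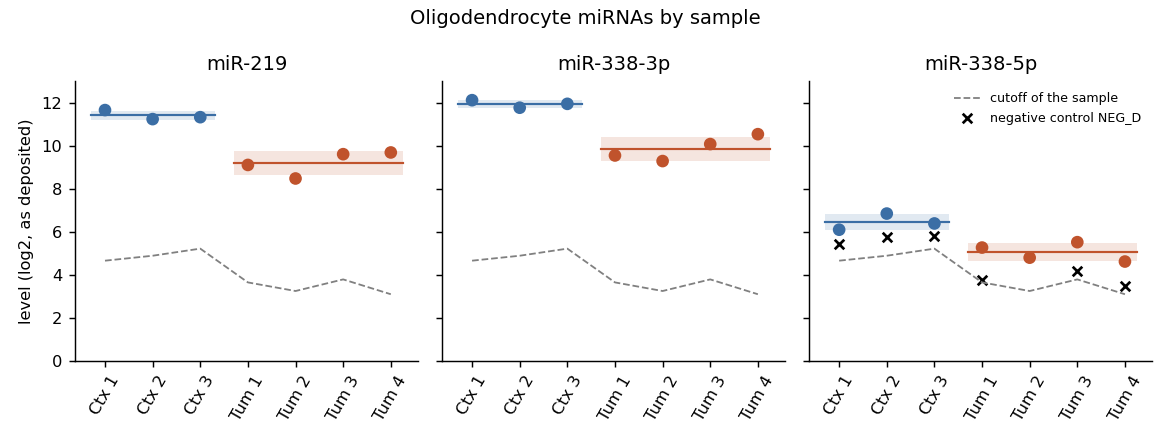
Deposited log2 level (vertical axis) of each miRNA in the 3 neocortex (Ctx, blue) and 4 tumor (Tum, orange) samples, with group means as lines, 1 SD as bands, each sample's cutoff as a dashed line and the negative-control probe NEG_D as crosses where it was listed. miR-219 and miR-338-3p stand far above the cutoff in all samples, whereas miR-338-5p lies within about 1 log2 unit of NEG_D in neocortex 1 and 3.

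The size of the fall differed with the scale. Scaled on the positive-control probes, which are spiked in at fixed amounts, miR-219 and miR-338-3p changed by -0.47 and -0.37 (limma Benjamini-Hochberg adjusted p = 0.317 and 0.446), and miR-338-5p turned to 0.32 (adjusted p = 0.275 by the same test). On that scale the median of all tested miRNAs lay at 1.74, so relative to it all 3 were lower. Scaled on the housekeeping mRNA probes the changes were -3.15, -3.04 and -2.35, against a median of -0.93. That scale rests on the 3 such probes above the cutoff in all samples. Whether these probes were themselves stable between the groups was not tested here.

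The recovered counts carry no scaling. miR-219 gave 1797, 816 and 551 counts in neocortex 1 to 3 and 571, 487, 905 and 1547 in tumor 1 to 4. miR-338-3p gave 2471, 1178 and 847 counts in neocortex and 775, 854, 1253 and 2788 in tumor. In counts the groups overlapped for both, and tumor 4 held more miR-338-3p counts than any neocortex sample. The mean total of miRNA counts was 3.75-fold higher in tumor.

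As a share of all miRNA counts, miR-219 made up 2.95%, 2.21% and 2.34% in neocortex 1 to 3 and 0.486%, 0.319%, 0.703% and 0.743% in tumor 1 to 4. The mean share was 2.50% ± 0.40 (SD, n = 3) in neocortex against 0.563% ± 0.198 (SD, n = 4) in tumor, a ratio of 4.44. miR-338-3p made up 4.06%, 3.18% and 3.60% in neocortex and 0.659%, 0.560%, 0.974% and 1.34% in tumor. Its mean share fell from 3.62% ± 0.44 (SD, n = 3) to 0.883% ± 0.352 (SD, n = 4), a ratio of 4.09. Shares are a form of scaling on the total, and the groups did not overlap in either miRNA. How many other miRNAs separate by share was not counted.

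**Figure D2:**
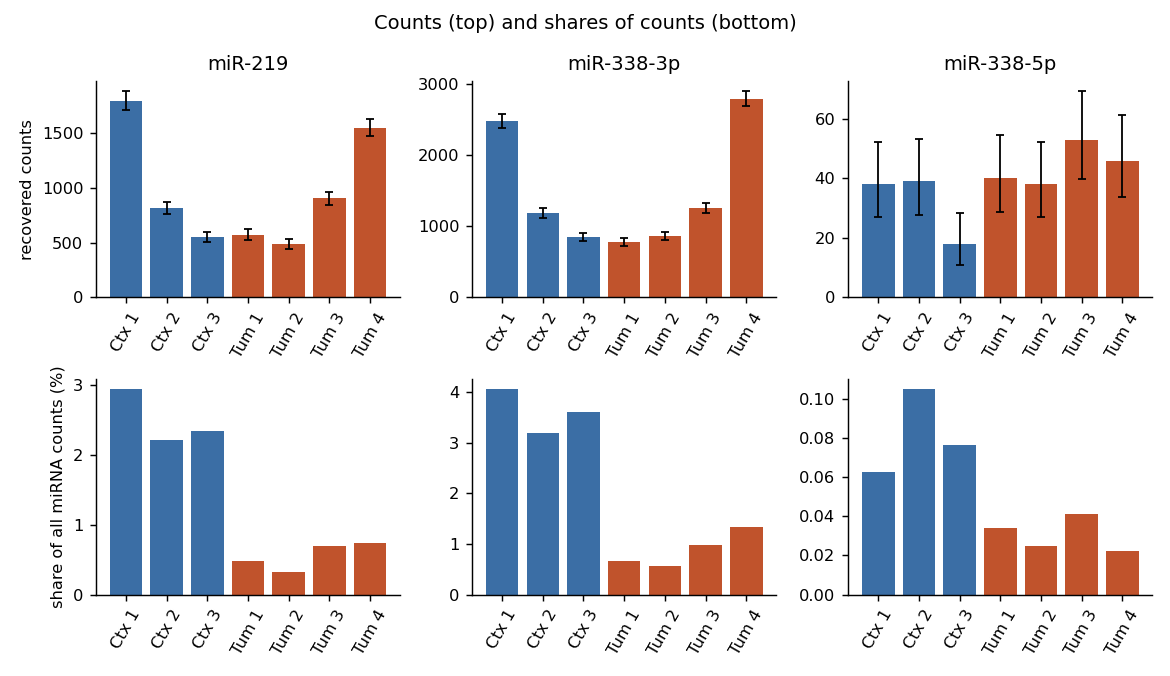
Recovered counts (top row, with exact 95% Poisson intervals, which cover counting error only) and share of all miRNA counts in percent (bottom row) for each miRNA in the neocortex (blue) and tumor (orange) samples. The counts of the groups overlap in all 3 miRNAs, and the shares of the tumors all lie below those of the neocortex. How many other miRNAs separate by share was not counted.

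In rank among the 566 miRNA probes of a sample, counted from the brightest, miR-338-3p stood in place 6 in all 3 neocortex samples. In tumor 1 to 4 it stood in places 30, 32, 24 and 15. miR-219 stood in places 9, 10 and 9 in neocortex 1 to 3 and in places 40, 47, 27 and 27 in tumor 1 to 4. The worst neocortex rank was thus better than the best tumor rank for both. How many other miRNAs separate in rank was not counted. miR-338-5p stood in places 141, 104 and 135 in neocortex and in places 201, 219, 166 and 217 in tumor. Ranks compare different probes, whose capture can differ, so a rank states the order of signals and not of molecule numbers.

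miR-338-5p needs its background beside it. It gave 38, 39 and 18 counts in neocortex 1 to 3 (exact 95% Poisson intervals 26.9 to 52.2, 27.7 to 53.3 and 10.7 to 28.4). In tumor 1 to 4 it gave 40, 38, 53 and 46 counts. The negative-control probe NEG_D, which has no target in the sample, gave 24, 18 and 12 counts in the neocortex samples, 14 in tumor 1, 21 in tumor 3 and 21 in tumor 4, and was under the cutoff of 13 counts in tumor 2. In neocortex miR-338-5p was therefore only 1.59, 2.16 and 1.49 times NEG_D. miR-219 and miR-338-3p were at least 40.8 times NEG_D in each sample that listed it.

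With NEG_D subtracted, or the cutoff in tumor 2, the change of miR-338-5p became -0.80 and missed the threshold (limma Benjamini-Hochberg adjusted p = 0.172). The groups of miR-338-5p then overlapped, with tumor 3 at 4.78 above neocortex 1 at 4.66. In that setting miR-219 stayed at -2.19 and miR-338-3p at -2.08, and the median over all tested miRNAs was 1.09. That subtraction of 1 negative-control probe was chosen after the data had been seen. The planned subtraction was of the mean of all negative-control probes, with those under the cutoff taken as 0. It left miR-338-5p at -1.377 (limma Benjamini-Hochberg adjusted p = 0.0301). Leaving out neocortex 2, neocortex 3, tumor 2 or tumor 4 gave miR-338-5p adjusted p of 0.0587, 0.0616, 0.0772 or 0.0598 (limma, Benjamini-Hochberg). The calls of miR-219 and miR-338-3p stayed past the threshold without any 1 of the 7 samples, with adjusted p of up to 0.0303 and 0.0329 by the same test.

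The arms of miR-338 come from the same hairpin, and their difference within a sample is free of the sample's scaling factor. miR-338-3p exceeded miR-338-5p by 6.02, 4.92 and 5.56 on the log2 scale in neocortex 1 to 3 and by 4.28, 4.49, 4.56 and 5.92 in tumor 1 to 4. Tumors 1 to 3 lay below all neocortex samples and tumor 4 lay among them. The mean gap was 5.50 ± 0.55 (SD, n = 3) in neocortex against 4.81 ± 0.75 (SD, n = 4) in tumor, a difference of -0.69 (SE 0.49, 2-sided exact permutation p = 0.229 over 35 splits). No change of the arm balance was detectable at these counts. The value rested on single samples, at -1.06 without tumor 4 and -0.43 without neocortex 1 (2-sided exact permutation p = 0.1 and 0.533), and a pseudocount of 30 gave -1.16 (p = 0.0857 by the same exact test). Signal of NEG_D's size makes up a larger part of the 5p arm than of the 3p arm, and with NEG_D subtracted the difference was -1.29 (2-sided exact permutation p = 0.143). With the mean of all negative-control probes subtracted the difference was -0.705 (p = 0.2 by the same exact test).

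Of the 9 miRNAs with both a 3p and a 5p probe above the cutoff in all 7 samples, miR-338 had the widest gap between arms, 5.11 on average over the samples, where the other 8 had gaps of 0.18 to 3.42. The change of the gap from neocortex to tumor ranged from -0.90 to 0.44 in the other 8. In 2 of the 9 pairs (22.2%), miR-1839 and miR-126, the groups did not overlap, and miR-338 was not among these. miR-126 is an endothelial miRNA. These names complete a count and were chosen after their values had been seen.

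**Figure D3:**
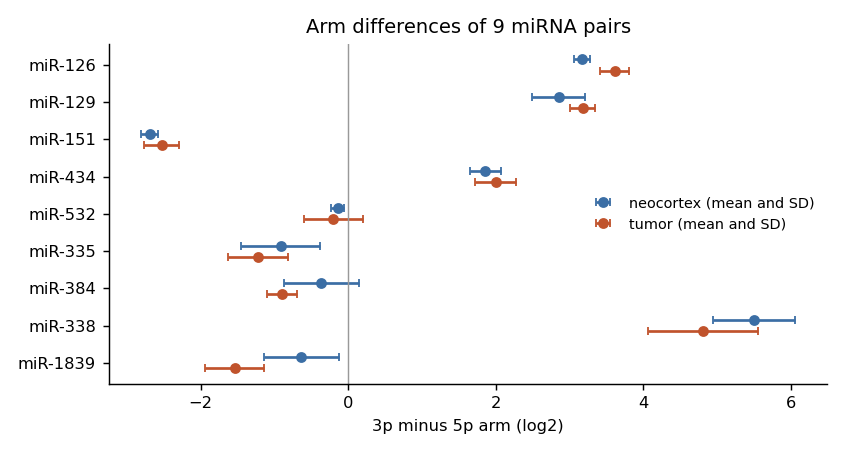
Mean 3p minus 5p difference (log2, horizontal axis, bars are 1 SD) in neocortex (blue, n = 3) and tumor (orange, n = 4) for the 9 miRNAs with both arms above the cutoff in all samples, ordered by the change from neocortex to tumor. The miR-338 arms differ most, and the bars of its groups overlap.

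miR-219 and miR-338-3p, which come from different chromosomes, kept nearly the same ratio in all samples. miR-219 minus miR-338-3p was -0.46, -0.53 and -0.62 in neocortex 1 to 3 and -0.44, -0.81, -0.47 and -0.85 in tumor 1 to 4. The values of the groups overlapped. Their means were -0.54 ± 0.08 (SD, n = 3) and -0.64 ± 0.22 (SD, n = 4), and the difference of -0.11 (SE 0.12) had a 2-sided exact permutation p = 0.429. Scaled by quantiles, which is not a shift of whole samples, the sign turned, to 0.05 (2-sided exact permutation p = 0.771).

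The likeness of the profiles was measured as the root mean square difference of log2 values over the 7 samples, after each profile had been centred on its own mean. Among the 196 other miRNAs above the cutoff in all samples, miR-338-3p was the nearest to miR-219 and miR-219 the nearest to miR-338-3p, with a difference of 0.16 against a median of 1.09 over all miRNAs from miR-219. Next to miR-219 came miR-670 at 0.45, miR-23b at 0.48, the probe that reads both miR-181b and miR-181d at 0.50 and miR-151-5p at 0.55. The same 4 followed for miR-338-3p, at 0.39, 0.42, 0.46 and 0.46. Their log2 changes were -1.58 for miR-670, -1.31 for miR-23b, -1.27 for the miR-181b and miR-181d probe and -1.25 for miR-151-5p, all smaller than those of miR-219 and miR-338-3p. miR-338-5p stood in place 12 from miR-219 and in place 18 from its own partner arm miR-338-3p. The measure takes in the difference between the groups as well as the spread within them.

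The other cell types of the samples were read from fixed lists of enriched miRNAs. On the neuron-enriched list 22 of 24 members were tested, and limma called 0 higher and 0 lower. Before adjustment 3 were lower and 0 higher at a p under 0.05 in limma. After adjustment 9.54% of all tested miRNAs were called lower. The list's median change was -0.44, against -0.29 over the 197 miRNAs above the cutoff in all samples. The calls of the list turned with the scale. On the housekeeping probes 18 of the 22 were called lower, as were 47.7% of all tested miRNAs, and on the positive-control probes 21 of the 22 were called higher, as were 80.6% of all. The summed linear level was 11210 to 20489 in neocortex and 8580 to 12408 in tumor. miR-124, the main neuronal miRNA, had levels of 12.21, 13.07 and 12.92 in neocortex and 12, 11.74, 11.94 and 11.84 in tumor. Its change of -0.85 and that of miR-128, another brain miRNA of neurons, at -0.75, did not pass the test (limma Benjamini-Hochberg adjusted p = 0.0599 and 0.154). miR-124 passed with values under the highest cutoff raised to it, at the same change (limma adjusted p = 0.0235), and on the housekeeping probes at -1.81 (limma adjusted p = 0.00104), and turned to 0.86 on the positive-control probes (limma adjusted p = 0.0149). Of this list miR-212 and miR-134 were at 0 in all neocortex samples. The part of neuron content in the fall of the members was not tested.

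Set against the mean of the 19 neuron-enriched miRNAs above the cutoff in all samples, miR-219 stood at 3.67, 2.32 and 2.65 in neocortex 1 to 3 and at 0.73, 0.20, 1.62 and 2.02 in tumor 1 to 4. The groups did not overlap, though neocortex 2 and tumor 4 came near each other. How many other miRNAs separate on this reference was not counted. The difference was -1.74 (SE 0.58, 2-sided exact permutation p = 0.0571, or 0.0914 adjusted over the 8 ratio tests). For miR-338-3p it was -1.63 (SE 0.57, 2-sided exact permutation p = 0.0857), with tumor 4 at 2.87 just above neocortex 2 at 2.85. For miR-338-5p it was -0.94 (SE 0.24, 2-sided exact permutation p = 0.0571). None of the 3 passed a threshold of 0.05 on this reference, and a pseudocount of 30 brought the value of miR-338-5p to -0.49. The mean of the 19 reference miRNAs itself changed by -0.45 on the authors' scale, which is part of each of these differences.

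The astrocyte-enriched list had 7 of its 8 miRNAs on the panel and 6 tested. miR-365 was called higher, at 0.80 (SE 0.20, limma Benjamini-Hochberg adjusted p = 0.0417), but lost the call without any sample other than tumor 1 (limma adjusted p reached 0.116), and lay at -0.16 on the housekeeping probes. The higher direction held 8.13% of all tested miRNAs. The list's median was 0.68 and 0 were lower. The summed linear level was 8326 to 11087 in neocortex and 13132 to 16658 in tumor, and miR-449b was at 0 in all samples. Both miR-29b and miR-29a, which mature astrocytes hold in large amounts, had changes of 0.70 and 0.66 that did not pass the test (limma Benjamini-Hochberg adjusted p = 0.0599 and 0.103), and lay at -0.26 and -0.30 on the housekeeping probes. miR-29c, of the same family, had a change of -0.27 (limma Benjamini-Hochberg adjusted p = 0.302), and on the housekeeping probes it was called lower at -1.23 (limma adjusted p = 0.00772). The list's median on those probes was -0.28.

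Set against the mean of the 5 astrocyte-enriched miRNAs above the cutoff in all samples, miR-219 stood at 2.13, 1.61 and 1.57 in neocortex 1 to 3 and at -1.16, -1.43, -0.57 and -0.33 in tumor 1 to 4. All neocortex values lay above 0 and all tumor values below it, where 0 is the level of the reference mean. How many other miRNAs separate on this reference was not counted. The 5 reference miRNAs were miR-29a, miR-29b, miR-29c, miR-143 and miR-365. Their mean itself changed by 0.46 on the authors' scale, which is part of each difference that follows. For miR-219 the difference was -2.65 (SE 0.31), against -2.54 (SE 0.32) for miR-338-3p and -1.85 (SE 0.26) for miR-338-5p. Each had a 2-sided exact permutation p = 0.0286, which is the least that this number of samples can give, and 0.0762 adjusted over the 8 ratio tests. With the median of the 5 astrocyte-enriched miRNAs in place of their mean, miR-338-5p differed by -1.12, and with a pseudocount of 30 by -1.30, both with the same exact p. The part of astrocyte content in these ratios was not tested.

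**Figure D4:**
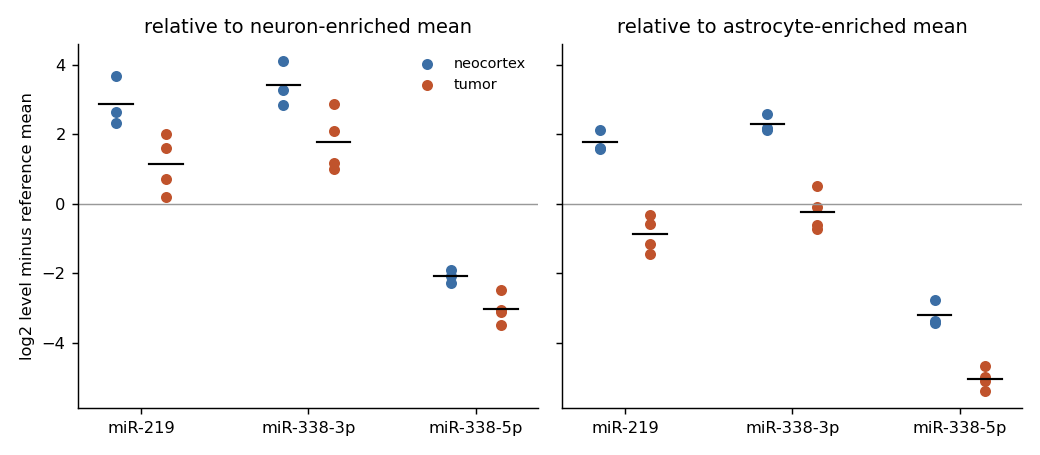
Log2 level of each miRNA minus the mean of the neuron-enriched (left) or astrocyte-enriched (right) miRNAs, for each neocortex (blue) and tumor (orange) sample, with group means as black lines. On the neuron reference the groups lie close and those of miR-338-3p overlap, and on the astrocyte reference they are apart for all 3 miRNAs. How many other miRNAs separate on these references was not counted.

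The list of microglia and white blood cells had 6 of 7 members tested, with 2 higher and 0 lower in limma, miR-142-3p and miR-146a, and a median of 0.57, where 8.13% of all tested miRNAs were called higher. miR-146a was at 0 in all neocortex samples and entered the test through the tumors. With values under the highest cutoff raised to it, its change was 0.51 and missed the threshold (limma Benjamini-Hochberg adjusted p = 0.0856), and the list's median was 0.33. Its summed linear level was 717 to 923 in neocortex and 688 to 1239 in tumor. miR-142-3p, the defining miRNA of blood-derived cells, was at 4.93 in neocortex 1, at 0 in neocortex 2 and 3, and at 7.33, 6.28, 6.30 and 6.18 in tumor 1 to 4. miR-150 and miR-342-3p, the most abundant of the list and lymphocyte miRNAs, had changes of -0.49 and -0.54 that did not pass the test (limma Benjamini-Hochberg adjusted p = 0.330 and 0.199). On the housekeeping probes both were called lower, at -1.44 and -1.50 (limma adjusted p = 0.0109 and 0.00383). There the list had 2 higher, 2 lower and a median of -0.39, where 47.7% of all tested miRNAs were called lower. On the positive-control probes 6 of the 6 were called higher, as were 80.6% of all. The call of miR-142-3p was lost without any sample other than neocortex 1, with limma Benjamini-Hochberg adjusted p of up to 0.113. With values under the highest cutoff raised to it, miR-142-3p passed at a smaller change of 1.31 (limma Benjamini-Hochberg adjusted p = 0.0112). miR-142-5p was at 0 in all samples. The part of immune cells in the result was not tested.

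Among the other 14 miRNAs with a reported role in the oligodendrocyte lineage, 10 were tested. On the authors' scale 0 of these 10 were called lower, which is near the 9.54% of all tested miRNAs. On the housekeeping probes 3 were called lower, namely miR-138 at -1.43, miR-145 at -1.18 and miR-7a at -0.90 (limma Benjamini-Hochberg adjusted p = 0.00887, 0.0139 and 0.0383), where 47.7% of all tested miRNAs were. Of 4 miRNAs reported in maturing oligodendrocytes, 3 were tested, with 1 higher, 0 lower and a median of 0.13. Over all tested miRNAs 8.13% were called higher and 9.54% lower. miR-138, which rises as progenitors mature and is also abundant in neurons, had a change of -0.47 (SE 0.30, limma Benjamini-Hochberg adjusted p = 0.302). miR-23a, which lowers lamin B1 and favors myelin genes, had levels of 9.60, 9.09 and 9.19 in neocortex and 9.51, 8.99, 9.46 and 9.73 in tumor, a change of 0.13 (SE 0.24, limma Benjamini-Hochberg adjusted p = 0.698). miR-146a, an inflammation-induced miRNA, was under the cutoff in every neocortex sample and at 5.26, 5.88, 5.82 and 5.91 in the tumors. Its call was lost when every value under the highest cutoff, 5.21, was raised to it (limma Benjamini-Hochberg adjusted p = 0.0856). miR-32 was at 0 in all neocortex samples and too low to test.

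Of 10 miRNAs reported in progenitors or as restraints on maturation, 7 were tested, with 3 higher, 0 lower and a median of 1.11, against 0.03 and 8.13% called higher over all tested miRNAs. With values under the highest cutoff raised to it, the list's median was 0.41, as miR-125a-3p, at 0 in neocortex 3, then changed by 0.41. The probe that reads miR-106a together with miR-17, from clusters that favor division of progenitors, had levels of 6.79, 6.36 and 6.80 in neocortex and 8.19, 8.13, 7.77 and 8.04 in tumor. Its log2 change was 1.38 (SE 0.20, limma Benjamini-Hochberg adjusted p = 0.00793). miR-9, abundant in neural progenitors, rose by 1.22 (SE 0.19, limma adjusted p = 0.00912). miR-19b, from the cluster that holds miR-17, rose by 1.11 (SE 0.27, limma adjusted p = 0.0388), but lost the call without any sample other than tumor 1, with adjusted p of up to 0.104. On the housekeeping probes the changes of the miR-106a and miR-17 probe, miR-9 and miR-19b were 0.42, 0.26 and 0.15 and did not pass the test.

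The remaining members of that list showed no call in limma. miR-7a, miR-27a and miR-145 had changes of 0.06, 0.10 and -0.22, and miR-125a-3p was at 0 in neocortex 3 with 2.19 (SE 1.31, limma Benjamini-Hochberg adjusted p = 0.282). miR-212, miR-199a-5p and miR-214 were at 0 in all neocortex samples and too low to test. The lists were written from general knowledge with earlier results known, so their counts give no independent support.

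The tumors span postnatal days 65 to 134, with 1 tumor at each age, so age and the single tumor cannot be told apart and no test was made. Below the neocortex mean, miR-219 was 4.92-fold lower at day 65, 7.62-fold at day 104, 3.48-fold at day 125 and 3.29-fold at day 134. miR-338-3p was 5.27-fold, 6.31-fold, 3.65-fold and 2.65-fold lower at the same days. For both, the low level was already there in the day 65 tumor, which is 5 days older than the neocortex samples, and the day 104 tumor was the lowest. From day 65 to day 104 miR-219 stepped by -0.63 on the log2 scale, then by 1.13 to day 125 and by 0.08 to day 134. miR-338-3p stepped by -0.26, 0.79 and 0.46. From the day 65 tumor to the day 134 tumor miR-219 thus differed by 0.58 and miR-338-3p by 0.99.

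miR-338-5p took another order. It was 2.26-fold, 3.13-fold, 1.90-fold and 3.55-fold below the neocortex mean at days 65, 104, 125 and 134, and its lowest tumor was that of day 134, where miR-338-3p was highest. The day 134 level of 4.61 came from 46 counts (exact 95% Poisson interval 33.7 to 61.4). The day 104 level of 4.79 came from 38 counts (26.9 to 52.2). Counting error is thus wider than the difference between these levels, and which of these tumors was lower is not settled. The order of tumors shared by miR-219 and miR-338-3p, from low to high the tumors of days 104, 65, 125 and 134, was found in 11 of the 197 miRNAs above the cutoff in all samples (5.58%), these members included. The tumor of day 104 was the lowest tumor for 49 of the 197 miRNAs (24.9%).

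The tumors differed among themselves more in miR-219 and miR-338-3p than in most miRNAs. The tumor SD of 0.56 for each compared with a median of 0.28 over the 197 miRNAs, and 91.4% and 90.4% of these had a smaller tumor SD. Among the neocortex samples, 30.5% and 19.3% of miRNAs had a smaller SD than miR-219 and miR-338-3p. Tumor 2, the lowest, was also the only female tumor. In the male samples alone the changes were -2.02 for miR-219 and -1.98 for miR-338-3p (limma Benjamini-Hochberg adjusted p = 0.0172 and 0.0395), and -1.11 for miR-338-5p, which missed the threshold (adjusted p = 0.125 by the same test).

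**Figure D5:**
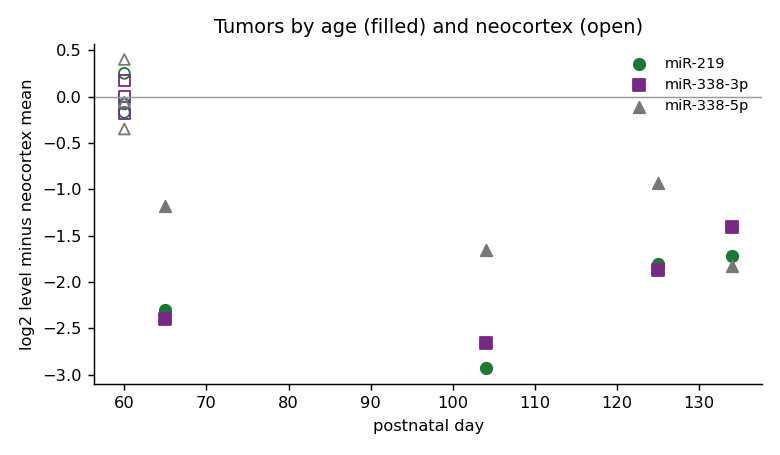
Log2 level minus the neocortex mean (vertical axis) against age in postnatal days (horizontal axis) for the 4 tumors (filled) and the 3 neocortex samples (open). miR-219 and miR-338-3p are lowest at day 104 and less reduced at days 125 and 134. miR-338-5p is lowest at day 134, by a margin to day 104 that lies within counting error.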

How the data were processed

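Total RNA of 3 neocortex and 4 tumor samples was isolated with a miRNA kit and measured with the nCounter mouse miRNA assay, version 1.3, per the labels' protocols and design text. The authors deposited log2 values, 1 column per sample; how these were normalized and background-corrected is not given in the sources used here. Counts were recovered from the deposited log2 values as whole multiples of 1 linear unit per sample: 100% of the 151 to 264 values checked in a sample (those of at most 60 counts) came out whole, to within 0.02 counts and the decimals' rounding. High counts carry that rounding.

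Groups came from the sample titles. Tumor was compared with neocortex with limma 3.58.1 in R 4.3.3 (lmFit, eBayes, 2-sided, no covariate or pseudocount), with Benjamini-Hochberg adjustment over the 283 of 566 miRNA probes whose mean was at least the median of all means, 2.80. Differences between probes within a sample were tested by 2-sided exact permutation over 35 splits, 8 tests as 1 family. The fit and the count recovery were tested on simulated data. The members, lists, tests and naming rule were chosen with earlier results of these data known. Named miRNAs are the members, the lineage list, the 5 nearest profiles of miR-219 and miR-338-3p, and the 2 most abundant members of each cell type list. Names that complete a count, or a statement on markers at 0, were chosen after their values were seen. Scalings, background, pseudocounts, filters, sex, replicate block and left-out samples were alternatives. Precision is limited by the number of samples and, for miR-338-5p, by its counts.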

Additional observations from a re-analysis of the deposited data

Results flagged for a closer look

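In tumor 4 the difference of miR-338-3p and miR-338-5p was 5.92 on the log2 scale, apart from the 4.28, 4.49 and 4.56 of the other tumors. The gap to the nearest tumor took up 0.8293 of the range of the 4 values, just past the limit for a sample that stands apart in a group of 4. Tumor 4 had the highest level of miR-338-3p of the tumors, 10.53, and the lowest of miR-338-5p, 4.61, from 46 counts. It was 1 of 11 sets of tumor values examined, and chance alone marks about 1 in 20 such sets.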

How the results depend on the processing

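The falls of miR-219 and miR-338-3p kept their direction under all 23 alternatives run for each, and 21 of the 23 passed the test. Scaled on the positive-control probes, the log2 changes of miR-219, miR-338-3p and miR-338-5p were -0.475, -0.369 and 0.318, the last with the sign turned, and the counts of lower and higher miRNAs became 0 and 228 with limma (unadjusted, 0 and 231 had a p under 0.05). On the housekeeping probes the counts were 135 lower and 10 higher. With a replicate block on the 3 shared sample numbers the changes were -2.343, -2.307 and -1.25 (limma Benjamini-Hochberg adjusted p = 0.116, 0.0797 and 0.208), with 0 lower and 5 higher miRNAs (31 and 28 unadjusted). The numbers share nothing in the labels beyond the number, and the profiles' deviations correlated by -0.177, 0.248 and 0.129, with neocortex 1 nearest to tumor 4 at 0.426. The block fit leaves out tumor 4. In male samples miR-338-5p was at -1.108, with 6 miRNAs lower. It was at -0.795 with NEG_D subtracted and at -1.377 with the negative-control mean subtracted. Leaving out 1 sample moved it between -1.567 and -1.192. The sign of miR-219 minus miR-338-3p turned under quantile scaling, at 0.046. With the shared cutoff, miR-338-5p minus the neuron-enriched mean was -0.711, with a 2-sided exact permutation p = 0.0286.

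Against the astrocyte-enriched mean, the values of miR-219, miR-338-3p and miR-338-5p were -2.539, -2.492 and -1.622 in male samples and -2.827, -2.79 and -1.733 under the block. Without 1 sample they ranged from -2.827 to -2.46, from -2.79 to -2.377 and from -1.982 to -1.645. These smaller designs cannot give an exact p below 0.0667, 0.1 or 0.25. Sex as a covariate left 15 miRNAs higher, no filter on low values gave 67 higher, and the 197 miRNAs above the cutoff in all samples gave 41 lower. Without 1 sample, 10 to 41 miRNAs were lower and 13 to 32 higher. The cause of these shifts was not tested. The count of lower miRNAs was 41 without neocortex 1, 14 without neocortex 3, 10 without tumor 2 and 16 without tumor 3, and that of higher miRNAs was 13 without tumor 2, 13 without tumor 3 and 15 without tumor 4. Counting error limits miR-338-5p most, with 18 to 53 counts in a sample.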
